A study of Homo sapiens with 12 samples.

Results

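The levels of 42 genes of the lysosome and of its transcriptional control, out of 60617 genes in the deposited files, were examined in HCT 116p53-/- cells and in a sub-line labelled RPL3 KO. The genes were chosen by name and by role, but with earlier results of these data known. They were 3 regulators, 8 proteases, 11 glycosidases and sulfatases, 7 lipid hydrolases, activators and sterol transfer proteins, 6 membrane proteins and 7 proton pump subunits. HCT 116p53-/- is a human colon cancer line from which p53 was deleted, and this deletion is shared by all groups. The sub-line is described by the study as stably silenced for uL3, the ribosomal protein encoded by RPL3, and whether it is 1 clone is not given in the sources used here. Each line received vehicle or 5 nM Act D for 24 h, an agent that at low dose inhibits rRNA transcription, with 3 libraries in each of the 4 groups, which the labels call biological replicates.

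Lysosomes are acidic organelles in which proteins, glycans and lipids are degraded. Soluble hydrolases are made in the endoplasmic reticulum, tagged with mannose 6-phosphate in the Golgi and delivered by receptors, while a proton pump (the V-ATPase) acidifies the lumen and heavily glycosylated membrane proteins line it. TFEB, TFE3 and MITF are related transcription factors of the MiT/TFE family. When amino acids are scarce they leave the lysosome surface for the nucleus and bind an E-box type sequence, known as the CLEAR element, near many lysosomal genes. Their location in the cell cannot be read from mRNA levels.

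Libraries held between 10087925 and 21138886 expected counts, and the 42 genes took 0.234 to 0.239% of the total in vehicle-treated HCT 116p53-/- cells, 0.242 to 0.254% with Act D, 0.306 to 0.332% in vehicle-treated RPL3 KO-labelled cells and 0.287 to 0.351% with Act D. The check of the labels did not separate the lines as named. RPL3 was at 1151, 1121 and 1141 CPM (counts scaled to library size with the TMM method) in vehicle-treated HCT 116p53-/- libraries and at 1188, 1337 and 1202 CPM in the vehicle-treated libraries labelled RPL3 KO, so it was not lower in the latter. The lines also differed in markers of colon epithelium, of which 8 of 10 could be tested with vehicle: 6 were lower in RPL3 KO-labelled libraries (EPCAM, CDH1, KRT8, KRT19, KRT20 and CDX2) and 2 were higher (KRT18 and LGR5). CDH1, which encodes E-cadherin, was at 64.3 to 68.8 CPM in vehicle-treated HCT 116p53-/- libraries and at 0.161 to 0.701 CPM in RPL3 KO-labelled libraries. The summed level of 10 colon epithelium markers was 2480 to 2682 CPM and 1595 to 1787 CPM, respectively, with the means of KRT20, CDX1, VIL1 and LGR5 under 1 CPM in the former and those of CDH1, KRT20, CDX1, CDX2 and VIL1 in the latter. The summed level of 8 fibroblast and mesenchyme markers was 32.4 to 39.1 CPM and 2283 to 2357 CPM, nearly all of it VIM (vimentin) in the latter. Of the 6 that could be tested 4 were higher (VIM, COL3A1, PDGFRB and LUM) and 2 were lower (COL1A1 and ACTA2). All 6 leukocyte markers had means under 1 CPM in the HCT 116p53-/- groups, and 5 had in the RPL3 KO-labelled groups, where LYZ was the exception. The part of these differences in the results below was not tested, and a change of the lysosome and the identity of the line cannot be told apart by a comparison of 2 lines.

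The promoters of the members are shown first, since the family of regulators reads DNA there. RefSeq windows of 300 bases (GRCh38.p14, 250 bases before and 50 after a transcription start) were matched by symbol for 30 of the 42 members. They were searched for CACGTG, the 6-base core of the CLEAR element, and for its 8-base form TCACGTGA, which contains the core. Both read the same on either strand. The core was found in 9 of the 30 members (30%) and in 8.77% of all genes with a window (7.26% of 35116 windows). The 8-base form was found in 6 members (20%) and in 1.18% of genes (0.980% of windows). The element is known near many lysosomal genes, as given above, so the members' higher shares are not read as a result of these data. The 9 members were CTSD, NEU1, CD63, LAMP1, ATP6V0D1, MCOLN1, CLN3, CTSA and GAA. CD63 had 8 windows, of which 1 held the core. CLN3 had 2 windows and both held it, and the others had 1 window each. No window of TFEB, TFE3 or MITF held it, which says only that these letters are not in these windows.

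Promoters of 3 of these members are given over the 250 bases before the start, since they belong to a commonly used lysosome marker (LAMP1) and to the members with the highest and the lowest log2 fold change between the lines (CTSD and GAA). Capitals mark the core. LAMP1 held 6 copies in its window, 5 of them complete before the start, CTSD held 1 copy that began 47 bases before the start, and GAA held 2 copies, both in the 8-base form.
LAMP1 promoter, chr13:113296989-113297238, plus strand: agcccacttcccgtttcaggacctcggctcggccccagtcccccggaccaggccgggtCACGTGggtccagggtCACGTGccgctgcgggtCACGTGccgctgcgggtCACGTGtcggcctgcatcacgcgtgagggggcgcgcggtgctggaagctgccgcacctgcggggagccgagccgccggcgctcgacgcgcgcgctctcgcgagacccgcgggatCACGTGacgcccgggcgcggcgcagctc
CTSD promoter, chr11:1763928-1764177, minus strand: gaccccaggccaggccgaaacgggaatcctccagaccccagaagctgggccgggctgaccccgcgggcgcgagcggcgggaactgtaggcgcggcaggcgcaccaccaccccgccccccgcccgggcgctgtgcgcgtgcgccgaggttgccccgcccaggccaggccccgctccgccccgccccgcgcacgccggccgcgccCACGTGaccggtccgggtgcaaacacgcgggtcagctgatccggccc
GAA promoter, chr17:80101331-80101580, plus strand: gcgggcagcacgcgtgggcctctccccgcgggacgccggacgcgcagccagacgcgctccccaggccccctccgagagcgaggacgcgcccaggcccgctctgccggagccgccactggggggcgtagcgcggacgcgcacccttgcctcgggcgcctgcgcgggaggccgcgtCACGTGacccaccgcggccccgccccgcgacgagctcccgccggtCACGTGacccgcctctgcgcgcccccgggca

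For the other 6 members the first copy in the first window that held the core is given with 12 bases on each side. They are shown because they cover all directions of the line difference: NEU1, CD63 and ATP6V0D1 were higher in the RPL3 KO-labelled libraries, CTSA was lower, and MCOLN1 and CLN3 did not pass the threshold.
NEU1, chr6:31862930-31862959, minus strand: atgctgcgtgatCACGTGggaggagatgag
CD63, chr12:55729172-55729201, minus strand: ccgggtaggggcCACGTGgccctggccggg
ATP6V0D1, chr16:67481199-67481228, minus strand: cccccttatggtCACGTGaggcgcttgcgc
MCOLN1, chr19:7522571-7522600, plus strand: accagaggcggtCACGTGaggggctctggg
CLN3, chr16:28492087-28492116, minus strand: aaaacctctgagCACGTGatgggggaacac
CTSA, chr20:45891281-45891310, plus strand: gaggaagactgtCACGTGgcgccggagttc

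**Figure D1:**
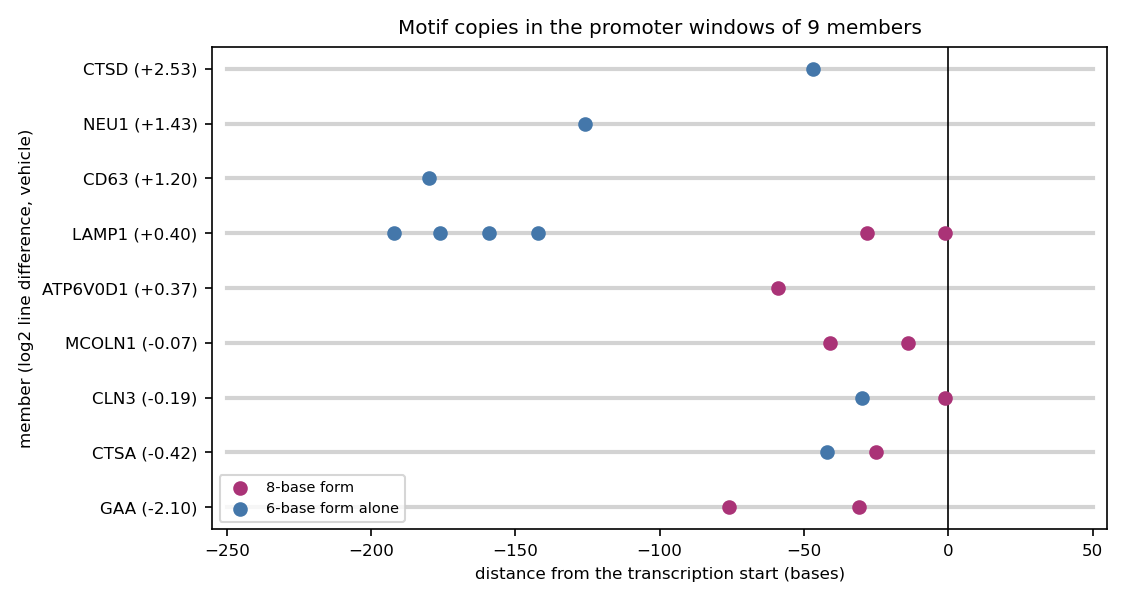
Position of each copy of the core motif in 1 promoter window of each of 9 members, the first window that held it. The x axis gives the distance from the transcription start in bases. Members are on the y axis in the order of their log2 line difference with vehicle, which is given beside each name. Purple points are copies in the 8-base form and blue points are copies of the 6-base core alone. Copies of the 8-base form lie within 76 bases of the start, in members with line differences from -2.10 (GAA) to 0.40 (LAMP1).

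The line difference with vehicle did not follow the motif in one direction. Among the 9 members with the core the log2 fold change ranged from -2.10 to 2.53 with a median of 0.37, and the median of the 21 matched members without it was 0.73. Among the 6 members with the 8-base form the median was -0.13, against 0.94 in the 24 matched members without it. These are descriptions and no test was made.

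Levels of the members were ordered by the deposited TPM, which is per transcript length. In vehicle-treated HCT 116p53-/- libraries the highest were PSAP (mean 159 TPM), which encodes the precursor of the saposins, CD63 (131 TPM), a tetraspanin of late endosomes and lysosomes, and CTSB (57.5 TPM), a cysteine protease. In vehicle-treated RPL3 KO-labelled libraries they were CD63 (208 TPM), PSAP (158 TPM) and CTSD (123 TPM), an aspartic protease that ranked eighth in HCT 116p53-/- cells with 29.7 TPM. TFEB and MITF were the lowest members in both, at 0.900 and 1.15 TPM in vehicle-treated HCT 116p53-/- libraries and at 0.777 and 0.690 TPM in vehicle-treated RPL3 KO-labelled libraries. The SDs of these 4 means were 0.106, 0.23, 0.196 and 0.191 TPM, so the order of TFEB and MITF, which differed between the lines, cannot be read from RPL3 KO-labelled libraries. TFE3 stood above both, at 2.37 and 5.90 TPM.

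The first comparison asked how the lines differed in lysosomal genes without drug. With vehicle, 26 of the 42 members were higher in RPL3 KO-labelled libraries than in HCT 116p53-/- libraries (61.9%) and 7 were lower (16.7%), and 9 did not pass the threshold (edgeR's quasi-likelihood test, adjusted p under 0.05). Of all 15692 genes tested 35.1% were called higher and 36.2% lower, so that most genes differed between these lines and the members' share of higher calls stands against that background. The median log2 fold change was 0.45 over members and -0.02 over all genes. All 42 members passed the low-count filter. When libraries were scaled by their size alone the median of all genes moved to -0.26, and 20 members were higher and 9 lower. MITF, LAMP1, LAMP2, PSAP, ATP6V0D1 and ATP6V1H were then no longer called higher. The shares of all genes called under this scaling were not counted, so these counts have no background beside them. Under each scaling 31 members lay above the median of all genes.

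**Figure D2:**
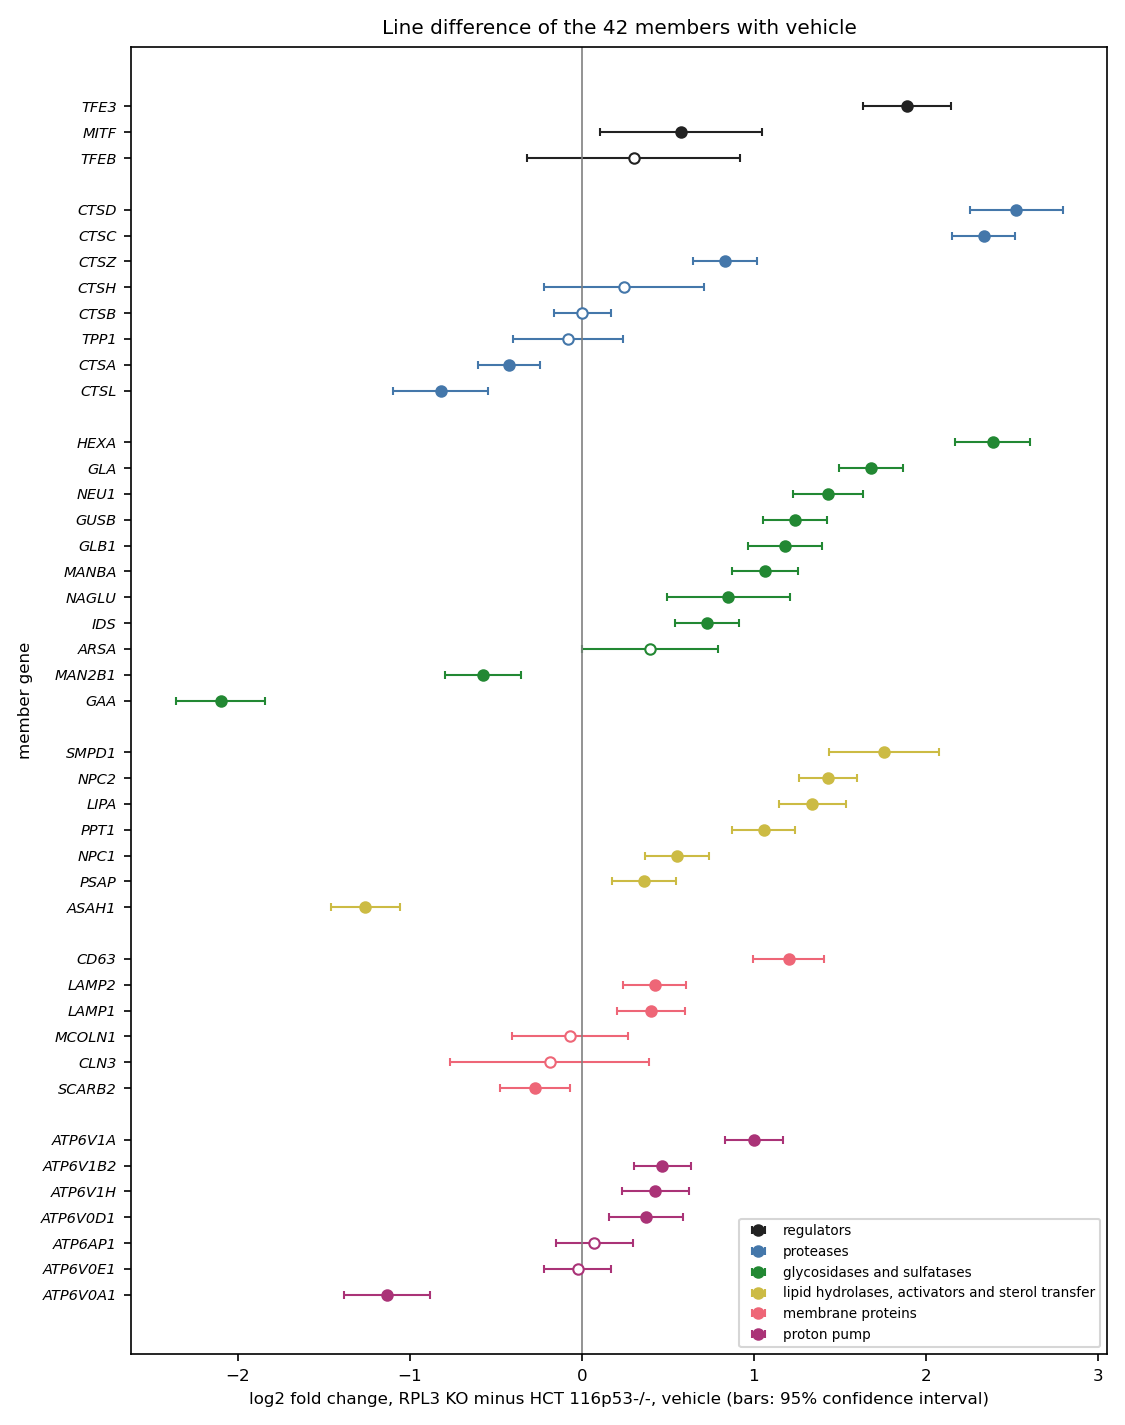
Log2 fold change of each of the 42 members between vehicle-treated RPL3 KO-labelled and HCT 116p53-/- libraries (x axis, positive values are higher in RPL3 KO-labelled libraries; 3 libraries per group), ordered within role groups on the y axis, with bars for 95% confidence intervals. Filled points passed the threshold and open points did not, and the values run from -2.10 (GAA) to 2.53 (CTSD), with CTSD, HEXA and CTSC the 3 highest.

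Among the regulators TFE3 and MITF were higher in RPL3 KO-labelled libraries, and TFEB did not pass the threshold. TFE3 (chrX:49028726-49043410, minus strand, hg38) was at 8.43, 11.02 and 8.33 CPM in the vehicle-treated HCT 116p53-/- libraries and at 36.3, 32.4 and 34.03 CPM in the vehicle-treated RPL3 KO-labelled libraries. The groups did not overlap, and TFE3 was 3.70-fold higher (log2 fold change 1.89, SE 0.121, adjusted p = 1.61e-10). With Act D TFE3 was at 11.2, 9.94 and 11.2 CPM in HCT 116p53-/- libraries and at 31.2, 28.4 and 32.9 CPM in RPL3 KO-labelled libraries, a difference of 1.52 on the log2 scale (adjusted p = 4.12e-09). The 3.70-fold higher level with vehicle rested on 130 to 160 counts per HCT 116p53-/- library.

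MITF (chr3:69739456-69968336, plus strand) encodes the member of the family best known from pigment cells. MITF was at 3.95, 3.10 and 3.20 CPM in the vehicle-treated HCT 116p53-/- libraries and at 4.74, 5.00 and 5.54 CPM in the vehicle-treated RPL3 KO-labelled libraries. The groups did not overlap, but the values were low, and the difference was 1.49-fold (log2 fold change 0.58, SE 0.224, adjusted p = 0.0288). In TPM, which is per transcript length and not adjusted by TMM, the MITF means were in the opposite order. They were 1.15 TPM in vehicle-treated HCT 116p53-/- cells and 0.690 TPM in vehicle-treated RPL3 KO-labelled cells. The call was lost when libraries were scaled by size alone (adjusted p = 0.225), and also without replicate 2 or 3 of vehicle-treated HCT 116p53-/- cells or without replicate 2 or 3 of vehicle-treated RPL3 KO-labelled cells (adjusted p between 0.0526 and 0.0882). With Act D, where MITF was at 3.24, 2.30 and 1.93 CPM and 5.75, 4.34 and 3.83 CPM, respectively, the log2 difference was 0.90 (adjusted p = 0.00291). Of 9 pigment cell genes known as MITF targets 5 could be tested, and with vehicle 0 were higher and 1 was lower, MREG (log2 fold change -1.40), with a median of -0.58. With Act D 1 was higher and 1 lower, with a median of 0.50.

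TFEB (chr6:41683978-41736259, minus strand) encodes the regulator most studied in lysosome biogenesis. TFEB was at 1.94, 2.48 and 2.35 CPM in the vehicle-treated HCT 116p53-/- libraries and at 1.93, 3.10 and 3.24 CPM in the vehicle-treated RPL3 KO-labelled libraries. The groups overlapped and the log2 fold change was 0.30 (95% confidence interval -0.32 to 0.92, adjusted p = 0.369). TFEB rested on 24 to 62 counts per vehicle-treated library over both lines.

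**Figure D3:**
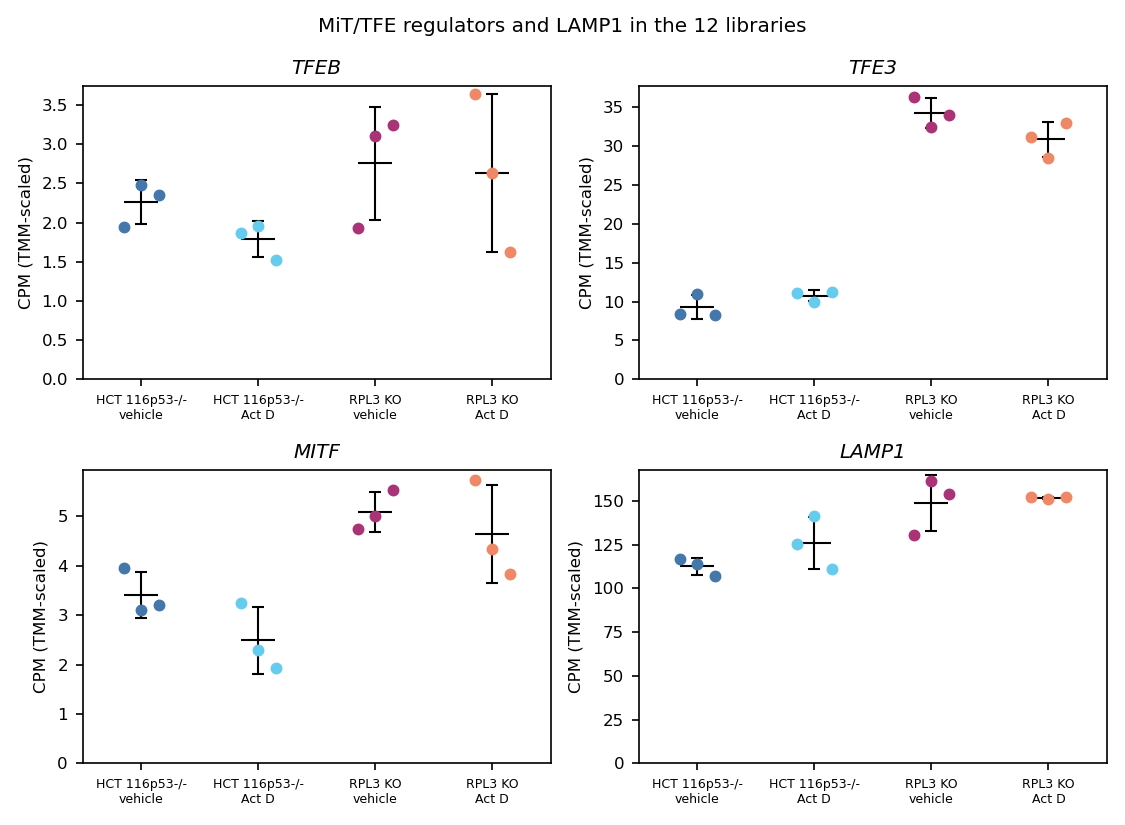
Levels of TFEB, TFE3, MITF and LAMP1 in all 12 libraries (y axis, TMM-scaled CPM from 0; x axis, the 4 groups). Coloured points are single libraries, black lines are the group mean and its SD over 3 libraries, and the TFE3 points of both RPL3 KO-labelled groups (28.4 to 36.3 CPM) lie above all those of HCT 116p53-/- cells (8.33 to 11.2 CPM).

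Of the 8 proteases 3 were higher (CTSC, CTSD and CTSZ), 2 were lower (CTSA and CTSL) and 3 did not pass the threshold (CTSB, CTSH and TPP1) in RPL3 KO-labelled libraries with vehicle. Their share of higher calls (37.5%) was near the 35.1% of all genes, and 25% were lower against 36.2%. The counts of the other role groups below stand against the same shares of all genes, and no difference between role groups was tested. CTSD (chr11:1752752-1764573, minus strand) encodes cathepsin D, an aspartic endopeptidase. CTSD was at 54.1, 76.1 and 60.4 CPM in the vehicle-treated HCT 116p53-/- libraries and at 356, 386 and 355 CPM in the vehicle-treated RPL3 KO-labelled libraries. The groups stood far apart, with a 5.76-fold higher level in RPL3 KO-labelled libraries (log2 fold change 2.53, SE 0.128, adjusted p = 5.84e-12). With Act D it was at 73.4, 71.8 and 69.5 CPM in HCT 116p53-/- libraries and at 446, 315 and 373 CPM in RPL3 KO-labelled libraries (log2 difference 2.40). Of the exon bases of CTSD 22.9% are shared with a read-through gene of the same strand, which was at 1.92 and 4.62 CPM in the 2 vehicle-treated groups.

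CTSC (chr11:88265069-88359684, minus strand) encodes cathepsin C, a dipeptidyl peptidase that activates granule serine proteases in leukocytes. CTSC was at 37.5, 33.1 and 36.05 CPM in the vehicle-treated HCT 116p53-/- libraries and at 163, 193 and 182 CPM in the vehicle-treated RPL3 KO-labelled libraries. It was 5.05-fold higher with no overlap (log2 fold change 2.34, SE 0.0874, adjusted p = 9.80e-14), and with Act D the log2 difference was 2.44. CTSZ, a carboxypeptidase, was also higher (log2 fold change 0.83), but it shares 31.7% of its exon bases with NELFCD on the opposite strand. NELFCD was at 71.8 and 27.1 CPM in the 2 vehicle-treated groups, which is the opposite direction.

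The 2 lower proteases were CTSL, a cysteine endopeptidase (log2 fold change -0.82), and CTSA, a carboxypeptidase that protects neuraminidase and beta-galactosidase (log2 fold change -0.42). CTSB was nearly level between the lines with a log2 fold change of 0.0034 (95% confidence interval -0.16 to 0.17, adjusted p = 0.971). Scaled by library size alone it was called lower (log2 fold change -0.23). CTSH, an aminopeptidase (log2 fold change 0.25, 95% confidence interval -0.22 to 0.71), was at 2.92 to 5.23 CPM in these 6 libraries and TPP1, a tripeptidyl peptidase, differed by -0.08 (95% confidence interval -0.40 to 0.24).

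Of the 11 glycosidases and sulfatases 8 were higher, 2 were lower (GAA and MAN2B1) and 1 did not pass the threshold (ARSA, an arylsulfatase, log2 fold change 0.39, adjusted p = 0.068). HEXA (chr15:72340924-72376420, minus strand) encodes the alpha subunit of beta-hexosaminidase, which degrades GM2 ganglioside. HEXA was at 20.7, 21.97 and 17.6 CPM in the vehicle-treated HCT 116p53-/- libraries and at 101, 116 and 98.5 CPM in the vehicle-treated RPL3 KO-labelled libraries. Every RPL3 KO-labelled library lay above every HCT 116p53-/- library, and HEXA was 5.24-fold higher (log2 fold change 2.39, SE 0.103, adjusted p = 6.88e-13). With Act D it was at 21.9, 23.9 and 24.8 CPM in HCT 116p53-/- libraries and at 120.3, 105 and 110.3 CPM in RPL3 KO-labelled libraries (log2 difference 2.25).

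GAA (chr17:80101533-80119881, plus strand) encodes acid alpha-glucosidase, which degrades glycogen in lysosomes, and it had the lowest log2 fold change among the members. GAA was at 60.8, 78.6 and 79.5 CPM in the vehicle-treated HCT 116p53-/- libraries and at 19.1, 15.01 and 17.2 CPM in the vehicle-treated RPL3 KO-labelled libraries. The order of the lines was thus the reverse of that for HEXA, with a 4.29-fold lower level in RPL3 KO-labelled libraries (log2 fold change -2.10, SE 0.124, adjusted p = 4.87e-11). With Act D it was at 78.4, 84.9 and 74.3 CPM in HCT 116p53-/- libraries and at 19.7, 16.3 and 15.8 CPM in RPL3 KO-labelled libraries (log2 difference -2.19). MAN2B1, a lysosomal alpha-mannosidase, was lower too, with a log2 fold change of -0.57.

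The other higher members of this group were GLA, an alpha-galactosidase (log2 fold change 1.68), NEU1, a sialidase (1.43), GUSB, a beta-glucuronidase (1.24), GLB1, a beta-galactosidase (1.18), MANBA, a beta-mannosidase (1.06), NAGLU, an N-acetylglucosaminidase (0.85), and IDS, iduronate sulfatase (0.73). GLA shares 8.99% of its exon bases with RPL36A, a ribosomal protein gene on the opposite strand, which was at 215 CPM in vehicle-treated HCT 116p53-/- cells and 750.1 CPM in vehicle-treated RPL3 KO-labelled cells. Whether the library kit kept the strand is not given in the sources used here, and the part of RPL36A reads in the GLA line difference was not tested. IDS shares 75.0% of its exon bases with a read-through gene of the same strand, which was below 1 CPM in all groups.

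All 7 lipid hydrolases, activators and sterol transfer proteins passed the threshold with vehicle, 6 of them higher and 1 lower. SMPD1 (chr11:6390440-6394998, plus strand) encodes acid sphingomyelinase, which splits sphingomyelin into ceramide and phosphocholine. SMPD1 was at 3.95, 4.20 and 4.23 CPM in the vehicle-treated HCT 116p53-/- libraries and at 15.5, 12.8 and 13.8 CPM in the vehicle-treated RPL3 KO-labelled libraries. The groups did not overlap and the level was 3.38-fold higher (log2 fold change 1.76, SE 0.152, adjusted p = 9.14e-09). With Act D it was at 5.29, 6.15 and 5.55 CPM in HCT 116p53-/- libraries and at 15.8, 12.7 and 17.7 CPM in RPL3 KO-labelled libraries (log2 difference 1.44).

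NPC2 (chr14:74476192-74494177, minus strand) encodes the soluble protein that hands cholesterol to NPC1 in the lysosomal membrane. NPC2 was at 37.6, 37.8 and 36.5 CPM in the vehicle-treated HCT 116p53-/- libraries and at 94.4, 108 and 99.3 CPM in the vehicle-treated RPL3 KO-labelled libraries. It was 2.69-fold higher without overlap (log2 fold change 1.43, SE 0.0803, adjusted p = 2.44e-11), whereas its partner NPC1 differed by 0.55 on the log2 scale. LIPA, the acid lipase that frees cholesterol from its esters, was higher by 1.34, PPT1, a thioesterase that removes palmitate from proteins, by 1.06, and PSAP by 0.36. The PSAP call was lost when libraries were scaled by size alone (adjusted p = 0.305). In TPM its means were nearly level, 159 TPM in vehicle-treated HCT 116p53-/- cells and 158 TPM in vehicle-treated RPL3 KO-labelled cells. The 1 lower member, ASAH1, encodes acid ceramidase, and it was at 73.4, 64.8 and 66.1 CPM in HCT 116p53-/- libraries and 25.5, 28.02 and 31.7 CPM in RPL3 KO-labelled libraries (log2 fold change -1.26, SE 0.0954, adjusted p = 1.56e-09).

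Of the 6 membrane proteins 3 were higher (CD63, LAMP2 and LAMP1), SCARB2 was lower, and MCOLN1 and CLN3 did not pass the threshold. CD63 (chr12:55725323-55729707, minus strand) was at 115, 107 and 85.6 CPM in the vehicle-treated HCT 116p53-/- libraries and at 238, 249 and 219 CPM in the RPL3 KO-labelled ones. It was 2.30-fold higher with groups far apart (log2 fold change 1.202, SE 0.0971, adjusted p = 3.79e-09). With Act D it was at 119, 117 and 116 CPM in HCT 116p53-/- libraries and at 224, 220.2 and 244 CPM in RPL3 KO-labelled libraries (log2 difference 0.97).

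LAMP1 (chr13:113297239-113323672, plus strand) and LAMP2 (chrX:120426148-120469365, minus strand) encode the most abundant glycoproteins of the lysosomal membrane, and both differed little. LAMP1 was at 117, 114 and 107 CPM in the vehicle-treated HCT 116p53-/- libraries and at 131, 161 and 154 CPM in the vehicle-treated RPL3 KO-labelled libraries. The groups did not overlap and LAMP1 was 1.32-fold higher (log2 fold change 0.40, SE 0.0949, adjusted p = 0.00101). On the TPM scale, which is not adjusted by TMM, its means were in the opposite order, 33.2 TPM in HCT 116p53-/- cells and 30.7 TPM in RPL3 KO-labelled cells, and scaled by library size alone the difference was 0.16 with an adjusted p of 0.181.

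With Act D, LAMP1 was at 125, 141 and 111 CPM and 152, 151 and 152 CPM, respectively (log2 difference 0.27, adjusted p = 0.0184). That call was lost without replicate 1 or 3 of Act D-treated HCT 116p53-/- cells or replicate 2 or 3 of Act D-treated RPL3 KO-labelled cells (adjusted p between 0.0532 and 0.201). It was also lost when libraries were scaled by size alone (log2 difference 0.02, adjusted p = 0.873) and without the low-count filter (adjusted p = 0.0524). LAMP2 was at 54.1, 52.7 and 47.2 CPM in the vehicle-treated HCT 116p53-/- libraries and at 62.6, 69.2 and 74.5 CPM in the vehicle-treated RPL3 KO-labelled libraries. LAMP2 was 1.34-fold higher without overlap (log2 fold change 0.42, SE 0.0866, adjusted p = 0.00028), with an adjusted p of 0.0779 when scaled by library size alone. Its TPM means were also in the opposite order, 12.85 TPM in vehicle-treated HCT 116p53-/- cells and 11.3 TPM in vehicle-treated RPL3 KO-labelled cells. SCARB2, the receptor that carries glucocerebrosidase to lysosomes, was lower (log2 fold change -0.27, adjusted p = 0.0178), a call lost without replicate 1 of either vehicle-treated group (adjusted p = 0.108 and 0.0881). MCOLN1, a calcium-permeable channel, differed by -0.07 (95% confidence interval -0.40 to 0.27) and CLN3 by -0.19 (95% confidence interval -0.76 to 0.39). The CLN3 count is uncertain, since the posterior SD that RSEM gives for it reached 27.0% of the count and it shares 25.3% of its exon bases with a read-through gene.

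The proton pump has a membrane sector (V0), which carries protons, and a cytosolic sector (V1), which splits ATP. Of its 7 members 4 were higher with vehicle, 1 was lower and 2 did not pass the threshold (ATP6AP1 and ATP6V0E1). ATP6V1A (chr3:113746770-113812056, plus strand) encodes the catalytic subunit of V1. ATP6V1A was at 99.1, 90.97 and 101 CPM in the vehicle-treated HCT 116p53-/- libraries and at 177, 201 and 205 CPM in the vehicle-treated RPL3 KO-labelled libraries. It was 2.00-fold higher without overlap (log2 fold change 1.00, SE 0.0804, adjusted p = 3.45e-09), and with Act D the log2 difference was 1.02. ATP6V0A1 (chr17:42458844-42522582, plus strand) encodes 1 of the alternative a subunits of V0. ATP6V0A1 was at 32.02, 32.4 and 38.2 CPM in the vehicle-treated HCT 116p53-/- libraries and at 16.1, 15.9 and 14.7 CPM in the vehicle-treated RPL3 KO-labelled libraries. It was 2.20-fold lower (log2 fold change -1.13, SE 0.119, adjusted p = 1.21e-07), and the subunits of this pump thus changed in both directions. ATP6V1B2 (log2 fold change 0.47), ATP6V1H (0.43) and ATP6V0D1 (0.37) were higher, and the intervals of ATP6AP1 (95% confidence interval -0.15 to 0.30) and ATP6V0E1 (95% confidence interval -0.22 to 0.17) give the differences that these data leave possible for them. In TPM the means of ATP6V1B2, ATP6V1H and ATP6V0D1 were in the opposite order. They were 15.4, 18.2 and 20.7 TPM in vehicle-treated HCT 116p53-/- cells and 15.1, 17.0 and 19.1 TPM in vehicle-treated RPL3 KO-labelled cells.

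**Figure D4:**
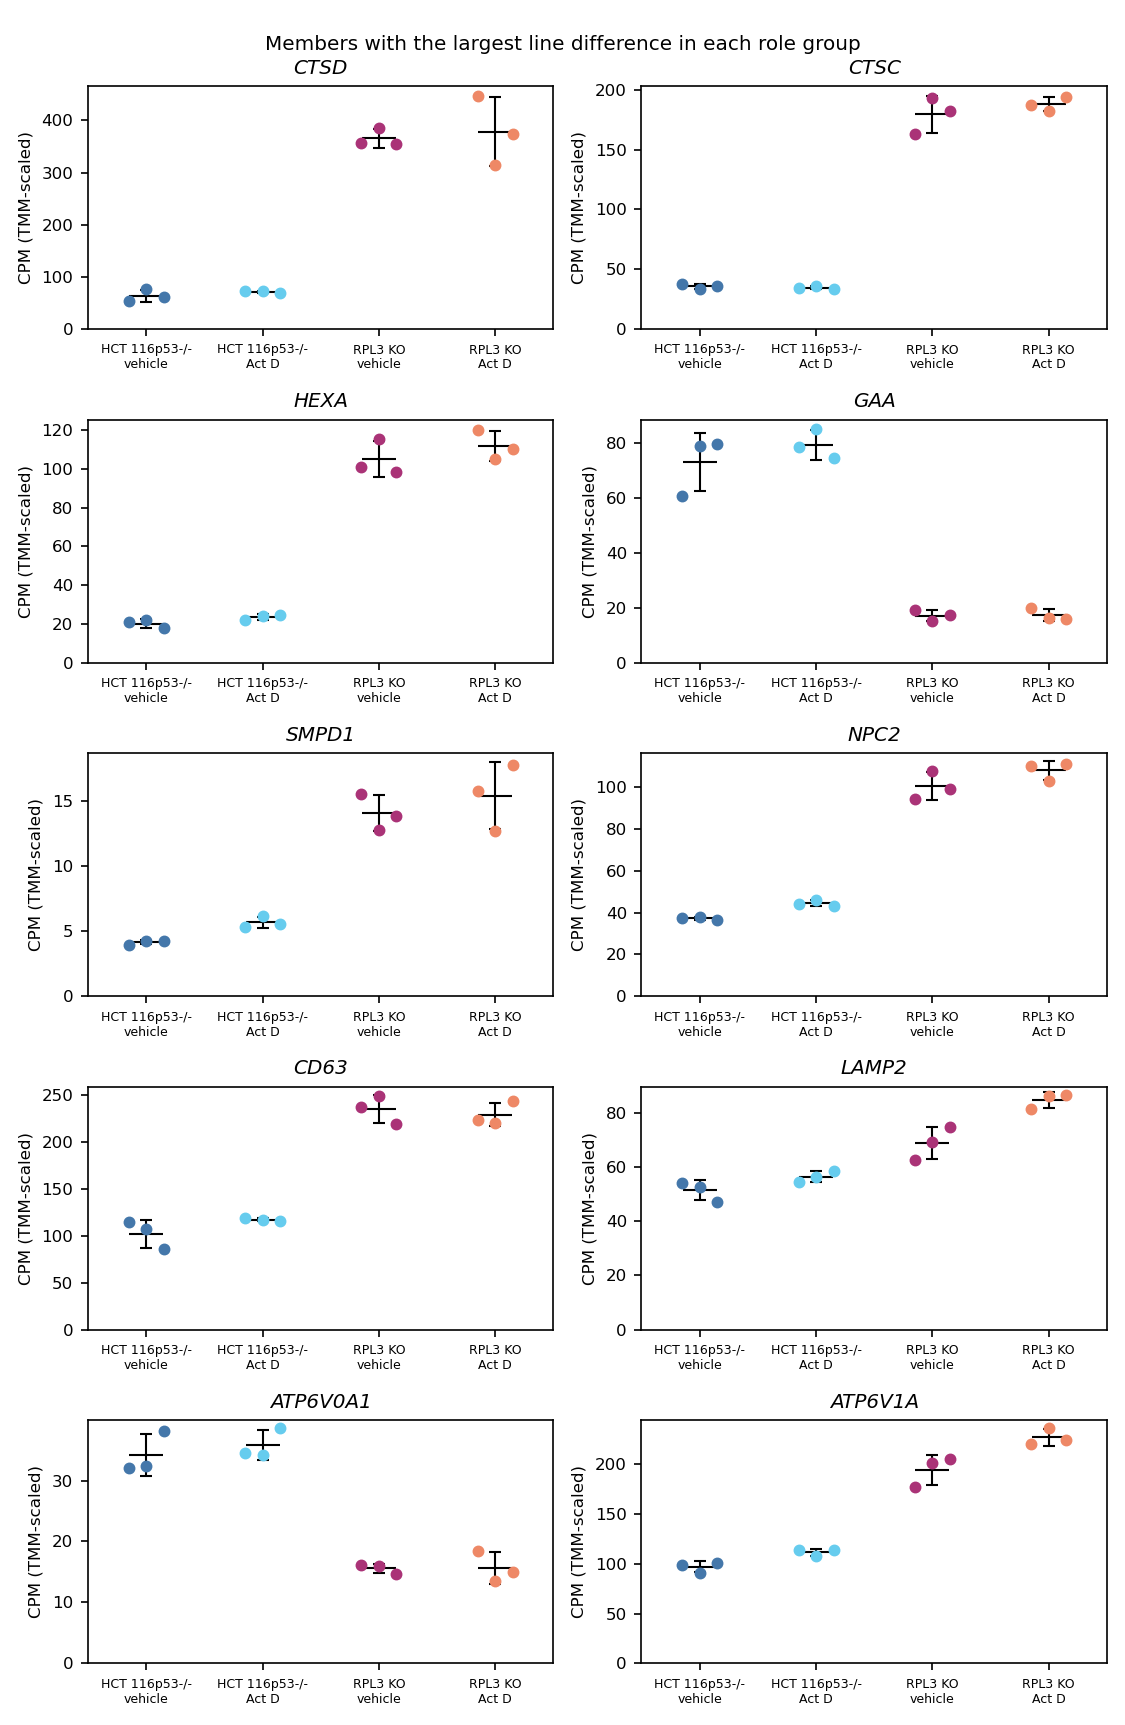
Levels of the 2 members with the largest line difference in each role group (y axis, TMM-scaled CPM from 0; x axis, the 4 groups). Points are single libraries and black lines are the group mean and its SD over 3 libraries. The RPL3 KO-labelled libraries lie above those of HCT 116p53-/- cells in 8 genes and below them in GAA and ATP6V0A1.

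The lines were then compared with Act D in both, which uses other libraries than the comparison above. With Act D 25 members were higher (59.5%) and 6 lower (14.3%), where 35.1% and 35.3% of all genes were. The median log2 fold change of members was 0.57. Scaled by library size alone 21 members were higher and 9 lower, and the shares of all genes called under that scaling were not counted. In both comparisons 30 members passed the threshold, all 30 in the same direction, and 4 passed it in one comparison only. These 4 were PSAP, SCARB2 and ATP6V0D1 with vehicle and ARSA with Act D. The share of all genes called in both comparisons was not counted, so this agreement is not read as particular to the members. ARSA (log2 difference 0.57) lost its call without replicate 3 of Act D-treated HCT 116p53-/- cells (adjusted p = 0.111), with library size alone (0.181) and without the low-count filter (0.0662), and ATP6V1B2 (0.24) without that library or replicate 3 of Act D-treated RPL3 KO-labelled cells (adjusted p = 0.0852 and 0.126), without the low-count filter (0.118) and with library size alone (0.979).

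Other genes of the lysosome were counted in the same way, against the 35.1% of all genes that were higher and the 36.2% that were lower with vehicle. Of 12 other proton pump subunits tested 7 were higher with vehicle and 2 lower, among the former ATP6V1D of the central stalk (1.73 on the log2 scale) and ATP6V0B (0.94), with ATP6V1E2 (-0.77) and ATP6V0A2 (-0.30) lower. With Act D 8 were higher and 0 lower. Of 27 other lysosomal hydrolases and cofactors 11 were higher and 10 lower. The higher genes with ample counts included LGMN, an asparaginyl endopeptidase (1.66), and GM2A, the activator that presents GM2 to beta-hexosaminidase (1.03), and the lower ones included EPDR1 (-5.41) and ARSG, a sulfatase (-1.81). With Act D 10 were higher and 12 lower. Of 20 other lysosomal membrane proteins 6 were higher, among them MFSD1 (1.95) and CD68 (1.43), and 8 were lower, among them the cystine exporter CTNS (-1.66) and the sialic acid exporter SLC17A5 (-1.64). With Act D the balance of this list was the other way, with 10 higher and 5 lower and a median log2 fold change of 0.28 against -0.11 with vehicle. Whether the shares of these lists differ from those of the 42 members was not tested.

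Of 16 genes of mannose 6-phosphate and sortilin delivery 5 were higher (31.2%) and 6 lower (37.5%) with vehicle, shares near those of all genes, and with Act D 6 were higher and 6 lower. SORL1, a sorting receptor (1.10), and GNPTG (0.71) were among the higher genes. AP1M2, an epithelial adaptor subunit (-4.26), and GNPTAB (-2.33) were among the lower ones. GNPTAB and GNPTG encode subunits of the same phosphotransferase, which starts the mannose 6-phosphate tag, and they changed in opposite directions. Of 13 genes of amino acid signalling on the lysosome 7 were higher, among them the folliculin partner FNIP2 (1.72) and LAMTOR2 (1.199), and 3 were lower, among them the Rag GTPases RRAGD (-1.75) and RRAGB (-0.76). With Act D 6 were higher and 4 lower. Of 18 genes of lysosome fusion and transport 4 were higher, among them RAB7A (1.07), and 8 were lower, among them BORCS7 (-0.96). With Act D 4 were higher and 10 lower.

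The next comparisons asked how Act D changed these genes within each line. The vehicle-treated libraries serve in both the line comparison and the Act D comparison, so the values are not independent of each other. In HCT 116p53-/- cells 7 members rose with Act D (16.7%) and 1 fell (2.38%), where 7.59% of all genes rose and 11.1% fell. The median log2 fold change was 0.16 over members and 0.02 over all genes. In RPL3 KO-labelled libraries 3 members rose (7.14%) and 0 fell, where 3.51% of all genes rose and 8.4% fell. Positive log2 fold changes were found for 35 of 42 members in the first comparison and for 29 in the second, called or not. Of all genes tested 52.2% and 53.8% were positive, respectively. At an unadjusted p under 0.05 there were 12 members in the first comparison and 6 in the second, and the share of all genes at that limit was not counted. Scaled by library size alone 2 members (GLA and NEU1) rose in HCT 116p53-/- cells and 0 in RPL3 KO-labelled libraries, where the median of all genes moved by about -0.10 in both. The shares of all genes called under that scaling were not counted.

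In HCT 116p53-/- cells the members that rose were GLA, NEU1, ATP6V1B2, PPT1, IDS, CTSB and NPC2. GLA was at 24.3, 24.5 and 23.97 CPM in vehicle controls and 36.9, 33.9 and 34.7 CPM after treatment, without overlap (log2 fold change 0.54, SE 0.0893, adjusted p = 0.000374). RPL36A, which overlaps it, was at 215 and 224 CPM in these groups. NEU1 was at 26.2, 22.7 and 24.6 CPM in vehicle controls and 33.9, 33.7 and 31.8 CPM after treatment (log2 fold change 0.44, SE 0.0973, adjusted p = 0.00418). All 3 treated libraries lay above all 3 controls.

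PPT1 was at 47.8, 45.4 and 48.7 CPM in vehicle controls and 59.7, 59.8 and 62.9 CPM after treatment (log2 fold change 0.36, SE 0.0866, adjusted p = 0.0068), and ATP6V1B2, the other nucleotide-binding subunit of V1, was at 58.5, 52.3 and 55.1 CPM in controls and 72.2, 68.1 and 68.3 CPM after treatment (log2 fold change 0.33, SE 0.0785, adjusted p = 0.00645). The groups did not overlap in either gene. IDS was at 57.3, 53.9 and 64.7 CPM in controls and 72.8, 69.6 and 74.4 CPM after treatment (log2 fold change 0.30, adjusted p = 0.0257) and CTSB was at 141, 155 and 159 CPM in controls and 186, 177 and 183 CPM after treatment (log2 fold change 0.26, adjusted p = 0.0271).

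These last calls were near the threshold, as was that of NPC2 (37.6, 37.8 and 36.5 CPM in controls, 44.2, 45.98 and 43.1 CPM after treatment, log2 fold change 0.25, adjusted p = 0.0381). IDS lost its call without replicate 1 or 2 with vehicle or replicate 1 or 3 with Act D (adjusted p between 0.0692 and 0.122), CTSB without replicate 1 or 2 with vehicle or any replicate with Act D (between 0.0575 and 0.121), and NPC2 without any 1 of the 6 libraries compared or replicate 3 of vehicle-treated RPL3 KO-labelled cells (between 0.0502 and 0.14). Without replicate 1 or 2 with vehicle, or replicate 1 or 3 with Act D, the number of members that rose was 4 instead of 7.

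NAGLU, named after its values were seen because it was the 1 member that fell, was at 7.13, 9.99 and 6.64 CPM in vehicle controls and 6.23, 4.73 and 4.50 CPM after treatment (log2 fold change -0.60, SE 0.185, adjusted p = 0.0297). The groups did not overlap, and the call was lost without replicate 2 with vehicle (adjusted p = 0.164) or replicate 2 or 3 with Act D (0.110 and 0.113). TFEB (log2 fold change -0.33), TFE3 (0.22) and MITF (-0.44) did not pass the threshold.

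Act D-treated HCT 116p53-/- libraries held low levels of genes that mark the other line. The 12 genes at 20 CPM or more in every RPL3 KO-labelled library and under 0.2 CPM in every vehicle-treated HCT 116p53-/- library stood at a median of 0.572 to 0.666% of their RPL3 KO-labelled level in the Act D-treated HCT 116p53-/- libraries, against 0.0828 to 0.135% in the vehicle-treated ones, which the choice of genes held low. At the highest of these shares the RPL3 KO-labelled level equals 3.70% (CTSB) to 10.1% (NPC2) of the rise of the 7 members, and 4.45% of that of GLA. When each Act D-treated HCT 116p53-/- library had its own share of the RPL3 KO-labelled level subtracted, the same comparison gave 7 members that rose and 1 that fell.

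In RPL3 KO-labelled libraries LIPA, LAMP2 and ASAH1 rose with Act D. LIPA was at 69.3, 82.96 and 73.7 CPM in vehicle controls and 101, 94.8 and 101 CPM after treatment, without overlap (log2 fold change 0.39, SE 0.0883, adjusted p = 0.00672), and in HCT 116p53-/- cells it was at 32.4, 29.3 and 27.7 CPM in controls and 28.5, 31.04 and 31.05 CPM after treatment. LAMP2 was at 62.6, 69.2 and 74.5 CPM in controls and 81.4, 86.2 and 86.4 CPM after treatment (log2 fold change 0.30, SE 0.0864, adjusted p = 0.0315). ASAH1 was at 25.5, 28.02 and 31.7 CPM in controls and 36.6, 37.8 and 32.9 CPM after treatment (log2 fold change 0.33, SE 0.0991, adjusted p = 0.0362). Neither group pair overlapped, but each of these 2 calls was lost without single libraries.

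For LAMP2 these were replicate 1 or 2 with vehicle, any replicate with Act D, or replicate 3 of Act D-treated HCT 116p53-/- cells (adjusted p between 0.0533 and 0.138). For ASAH1 these were replicate 1 or 2 with vehicle, any replicate with Act D, or any replicate of Act D-treated HCT 116p53-/- cells (between 0.0515 and 0.146). Without replicate 1 with vehicle, without any 1 replicate with Act D, or without replicate 3 of Act D-treated HCT 116p53-/- cells, 1 member rose instead of 3. TFEB (log2 fold change -0.05), TFE3 (-0.15) and MITF (-0.12) did not pass the threshold here either.

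**Figure D5:**
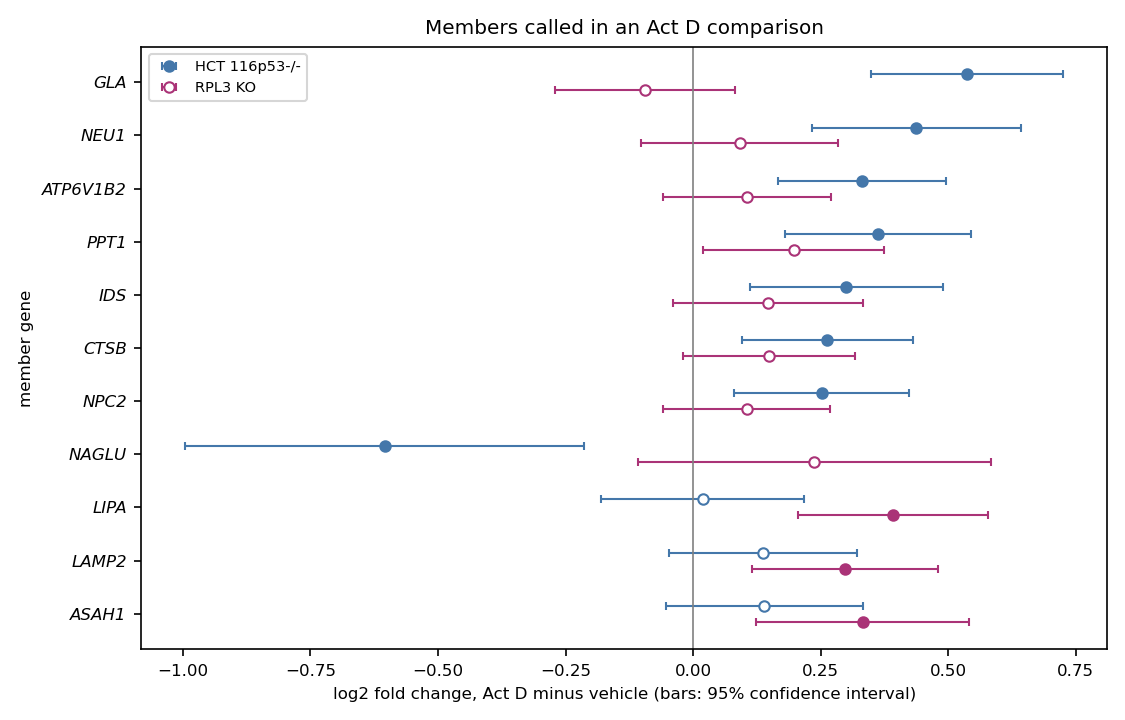
Log2 fold change with Act D (x axis, positive values are higher with Act D; bars are 95% confidence intervals) of the 11 members that passed the threshold in either line (y axis), in HCT 116p53-/- cells (blue) and RPL3 KO-labelled cells (purple), with 3 libraries per group. Filled points passed the threshold, and for GLA the interval of HCT 116p53-/- cells (0.35 to 0.73) lies above that of RPL3 KO-labelled cells (-0.27 to 0.08).

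The last comparison tested whether the response to Act D differed between the lines, as an interaction. Of the 42 members 1 passed the threshold with a lower response in RPL3 KO-labelled cells (2.38%) and 0 with a higher one, where 3.23% and 3.3% of all genes did, respectively, so that the members' share was near the background. At an unadjusted p under 0.05 there were 5 members, and the share of all genes at that limit was not counted. The member was GLA, whose level rose in HCT 116p53-/- cells as given above and was at 71.6, 82.8 and 78.9 CPM in vehicle controls and 71.8, 68.4 and 78.5 CPM after treatment in RPL3 KO-labelled libraries (log2 fold change -0.63, SE 0.122, adjusted p = 0.0049 for the interaction). The line difference of GLA was accordingly 1.68 with vehicle and 1.05 with Act D. NAGLU lay just outside the threshold with the opposite sign (interaction 0.84, adjusted p = 0.0504), and it was at 12.9, 16.5 and 13.2 CPM in controls and 18.5, 14.96 and 16.7 CPM after treatment in RPL3 KO-labelled libraries, which overlap. NEU1 had an interaction of -0.35 (adjusted p = 0.136) and LIPA of 0.37 (adjusted p = 0.0952). For the regulators the intervals, which are not adjusted for the number of genes, were wide: TFE3 -0.37 (95% confidence interval -0.73 to -0.01, adjusted p = 0.228), MITF 0.33 (95% confidence interval -0.37 to 1.02) and TFEB 0.28 (95% confidence interval -0.62 to 1.19).

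The other lists were counted in the Act D comparisons too. In HCT 116p53-/- cells, where 7.59% of all genes rose and 11.1% fell, 7 of 27 other hydrolases rose (25.9%) and 2 fell (7.41%), 3 of 12 other proton pump subunits rose (25%) and 1 fell (8.33%), and 0 of 20 other membrane proteins rose and 5 fell (25%). In RPL3 KO-labelled libraries, where 3.51% of all genes rose and 8.4% fell, 0 other hydrolases rose and 1 fell, 0 other pump subunits rose and 1 fell, and 1 other membrane protein rose and 1 fell. Of the 16 delivery genes 1 rose in HCT 116p53-/- cells and 0 in RPL3 KO-labelled libraries, and 0 fell in either. Of the 13 signalling genes 3 rose and 1 fell in HCT 116p53-/- cells, and 1 rose and 1 fell in RPL3 KO-labelled libraries. Of the 18 fusion and transport genes 2 rose and 0 fell in the former, and 0 rose and 1 fell in the latter. In the interaction, against 3.3% and 3.23% of all genes with a higher and a lower response in RPL3 KO-labelled cells, 3 of 20 other membrane proteins had a higher response (15%), 2 of 18 fusion and transport genes had a lower one (11.1%), as had 1 of 12 other pump subunits (8.33%), and the other hydrolases, delivery, signalling and pigment cell lists held 0 calls in either direction. Whether any of these shares differ from those of all genes was not tested.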

How the data were processed

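RNA-seq of 12 libraries (4 groups of 3) was used. The authors quality-trimmed the reads, discarded contaminating ones and quantified Ensembl genes (hg38) by RSEM 1.2.25. The deposited values are RSEM expected counts, not normalized, TPM per gene, and a score, the posterior standard deviation of each count that RSEM gives as deposited for 11 libraries. Replicate 2 of the vehicle-treated HCT 116p53-/- group was deposited per transcript (226788 transcripts), which were summed to genes. Reads shared by overlapping genes are divided by estimation.

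Groups came from the labels and replicate numbers from the titles. Counts were rounded, genes filtered with filterByExpr (15692 of 60617 left) and libraries scaled with TMM (factors 0.847 to 1.148). All 12 libraries were fitted with a coefficient per group with edgeR 4.0.16 (R 4.3.3), and each comparison was tested with its quasi-likelihood test, with Benjamini-Hochberg adjusted p over all 15692 genes and a threshold of 0.05. A statement without a named test refers to this one. Depth was 10087925 to 21138886 counts, which limits TFEB, MITF and other genes of few counts. The test was run on simulated data for the line difference with vehicle over 15692 genes and recovered 170 of 200 genes changed by a log2 of 1, with 11 false calls. The simulated libraries shared the same level per gene and a fixed spread, and only those 200 genes differed. Most genes differed between the real lines, so the simulation does not give the rate of false calls for them. The study's methods name no tool for this step, only the threshold.

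The members, lists and rules were chosen with earlier results of these data known. Values per library are given for TFEB, TFE3, MITF and LAMP1, for the 2 members of each other role group with the largest absolute log2 fold change with vehicle among those called, and for members called in an Act D comparison (at most the 6 with the smallest p in each). In other lists at most 2 genes per direction were named (called, at least 5 CPM in 1 group, groups not overlapping). Alternatives tried were library size alone, DESeq2 1.42.0, the likelihood-ratio test of edgeR, upper-quartile scaling, no low-count filter, 1 CPM in 3 libraries, a block for the replicate number, a fit to the compared groups only, a minimum log2 fold change of 1, and each library left out. Subtraction of the share of the other line's level was added after seeing the data. Gene positions and exon overlaps came from GENCODE v44 (hg38) and promoters from RefSeq (GRCh38.p14). Promoters of 12 members, with no match by symbol, were not analysed here.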

Additional observations from a re-analysis of the deposited data

Results flagged for a closer look

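GLA stood out because its response to Act D differed between the lines by a test of the difference itself (edgeR's interaction, log2 -0.63, adjusted p = 0.0049). It rose in all 3 treated HCT 116p53-/- libraries relative to all 3 controls, and the groups overlapped in the RPL3 KO-labelled libraries. Over the alternatives in which libraries, tests, filters or scaling were changed, the interaction lay between -0.73 and -0.59 and its adjusted p between 0.000255 and 0.0207. RPL36A, which overlaps GLA on the opposite strand, was at 215 and 224 CPM in vehicle-treated and Act D-treated HCT 116p53-/- cells and at 750.1 and 742 CPM in RPL3 KO-labelled cells, and its part in the GLA counts was not tested.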

How the results depend on the processing

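When calls also had to reach a log2 fold change of 1, 15 members were higher and 3 lower with vehicle, 14 higher and 3 lower with Act D, and 0 in either direction in both Act D responses and in the interaction. The shares of all genes under this rule and under the alternatives below were not counted, so the counts of members have no background beside them. Library size alone gave 2 members that rose with Act D in HCT 116p53-/- cells and 0 in RPL3 KO-labelled libraries. It turned CTSB with vehicle to -0.23 (called lower, adjusted p = 0.026) and ATP6V1B2 with Act D to -0.0029 (not called). Without the low-count filter 4 and 1 rose, respectively. With upper-quartile scaling 6 members rose in RPL3 KO-labelled libraries, and with only the 2 groups compared 1 did. For the interaction, 1 member (NAGLU) had a higher response under DESeq2, the likelihood-ratio test, upper-quartile scaling, no filter, 1 CPM in 3 libraries and the subtraction of the other line's share. Leaving out 1 library at a time gave 25 to 26 higher and 6 to 7 lower with vehicle, 22 to 25 and 6 to 7 with Act D, 4 to 8 that rose and 0 to 1 that fell in HCT 116p53-/- cells, 1 to 3 and 0 in RPL3 KO-labelled libraries, and 0 to 1 and 1 for the interaction. The causes were not tested. Among the values of single members under these alternatives, the added threshold aside, 4258 kept their side of the threshold, 77 lost and 30 gained a call, and 2 turned.

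Deviations of same-numbered libraries from their group means were weakly correlated (-0.16 to 0.12 over the comparisons, 0.04 to 0.12 for Act D in HCT 116p53-/- cells). With means of 3 libraries these values cannot show whether the numbers pair the samples. With the replicate block 1 member rose with Act D in RPL3 KO-labelled libraries, 5 rose in HCT 116p53-/- cells, and the other counts stayed within 1.5 times. Low counts limit TFEB and MITF.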
